A study of Canis lupus familiaris with 45 samples.

Results

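The genes described here encode the laminin and collagen IV chains of the basement membrane. They were taken as all probe sets of the array that carry a single gene symbol starting with LAMA, LAMB, LAMC or COL4A and a digit, whatever their signals. This gave 30 of 23836 probe sets and 12 genes: the laminin chains LAMA1, LAMA3, LAMA4, LAMB1, LAMB2 and LAMC1, with 16 probe sets, and the collagen IV chains COL4A1 to COL4A6, with 14. Of these, 15 probe sets of 7 genes were bright enough to be tested, among 14302 tested on the array. Other laminin chains, among them LAMA2, were not analysed here.

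The data come from left ventricular tissue, cut through the full thickness of the wall, of male dogs of matched age. Heart failure was brought on by pacing the right ventricle at 240 pulses per minute through an implanted pacemaker. The groups were Day-0 (not paced), Day-3 (paced for 3 days), Week-1 (1 week), Week-2 (2 weeks) and End-stage (3 to 4 weeks, with failure checked by haemodynamic measurement), each of 3 dogs. RNA was isolated 3 times from each dog and each isolation went on its own array, so that 15 dogs gave 45 arrays, and each value below is the mean of a dog's 3 arrays. Whether the Day-0 dogs had the pacemaker operation is not stated in the sources used here, and no breed or genotype is given there. Because whole tissue was measured, fewer cells of a type and less RNA per cell cannot be told apart.

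The basement membrane is a thin sheet of matrix that surrounds every cardiac muscle cell and lies under the endothelium of every vessel. Laminins are assembled from an alpha, a beta and a gamma chain, form a network at the cell surface and are bound there by integrins and dystroglycan. Collagen IV chains form triple helices that join into a second network, which gives the sheet its strength, and nidogens and the proteoglycan perlecan link both networks. COL4A1 and COL4A2 are the chains found in nearly all tissues, and their genes lie side by side and are transcribed away from each other from a shared promoter. On the dog assembly UU_Cfam_GSD_1.0, COL4A1 and COL4A2 were neighbours, as were COL4A3 and COL4A4 and also COL4A5 and COL4A6.

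The 9 cardiomyocyte markers tested, among them troponins and myosin light chains, were bright in every dog. Their summed signal was 62464 to 67088 in the dogs numbered 1, 1 in each group, and 76479 to 100741 in the other 10 dogs. One library-level finding touches the results. Arrays of dogs with the same number were compared over 200 probe sets that tell dogs apart. End-stage dog 1 and Week-1 dog 1 were not cleanly separate. Of their 6 arrays 4 were closest to an array of the partner dog. Among the remaining 39 arrays 0 were closest to an array of another dog with the same number. Dogs with different numbers, among them those of the same group, were not compared in this way. For part of the results that rest on these dogs, values without them are given as well. The sums of markers and most partner genes are given with all dogs only. Leaving out both dogs gave no call among the members, and not every value that moved is given below.

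No laminin or collagen IV probe set passed the test in any comparison over the dog means (limma, Benjamini-Hochberg adjusted p under 0.05). When the 45 arrays were fitted singly, with a correlation between isolations shared by all probe sets, 1 LAMA4 probe set passed. That fit also called many more probe sets over the whole array than the fit of the dog means did. The highest signals belonged to LAMA4, COL4A1 and COL4A2. On the log2 scale, group means of their brightest probe sets in paced dogs lay up to 0.44 above the Day-0 mean. A dimmer COL4A1 probe set, 1587555_at, reached 0.64. The collagen IV pair COL4A1 and COL4A2 went together from dog to dog, with its lowest means in the Day-0 and Week-1 dogs. The brightest probe sets of LAMA4 and LAMB1 had their highest means in the Week-1 dogs instead, LAMA4 by 0.02 over End-stage and LAMB1 largely through Week-1 dog 2.

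**Figure D1:**
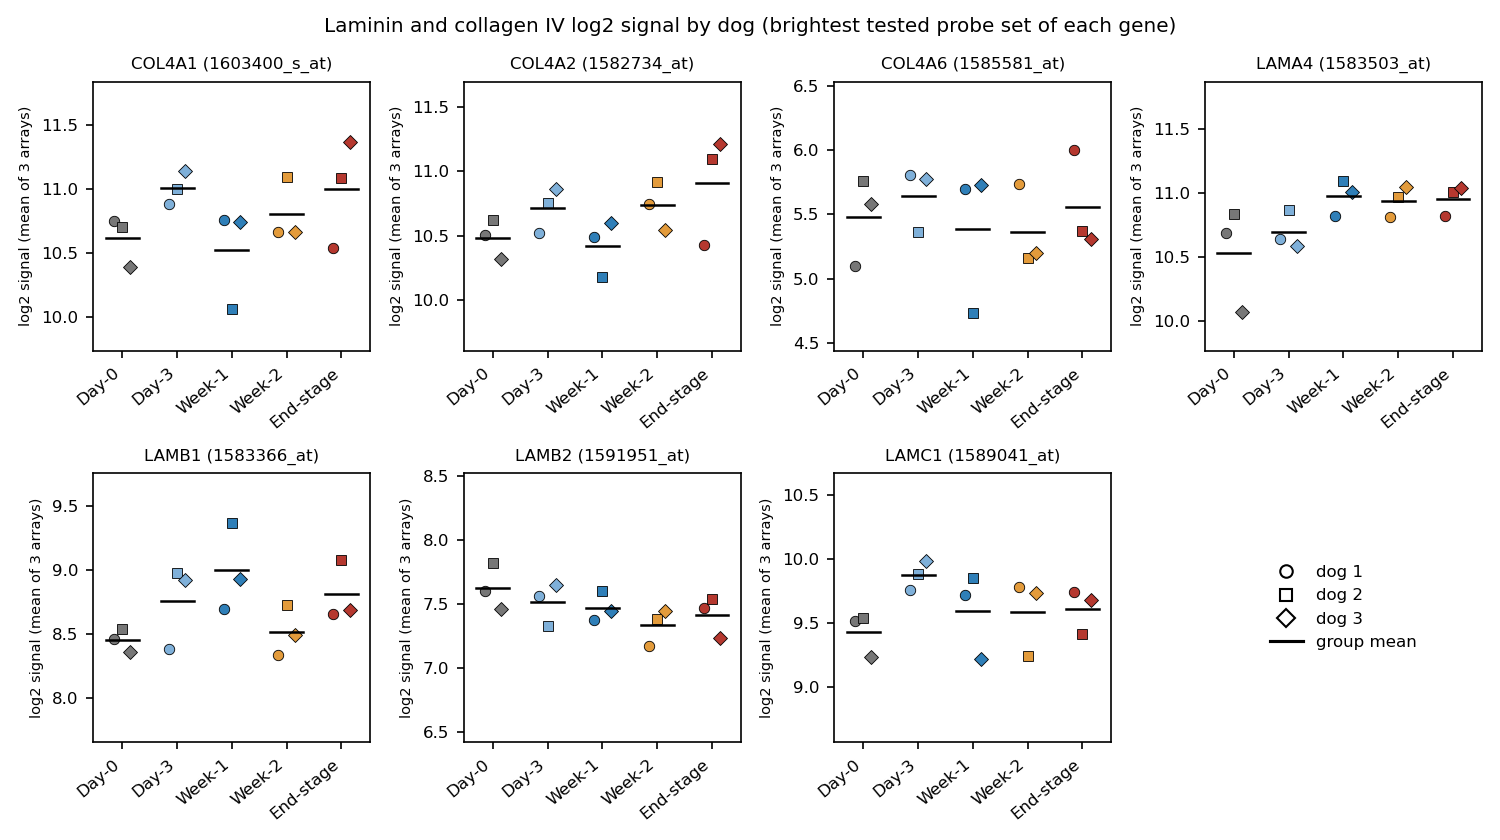
Log2 signal of the brightest tested probe set of each of the 7 tested genes in the 3 dogs of each group (symbols) with the group mean (bar). Vertical axes show the mean of 3 arrays, and each panel is centred on its own mean and spans the same width. LAMA4 of Day-0 dog 3 stands at 10.07, below the other 14 dogs, and the COL4A1 and COL4A2 panels have their lowest point in Week-1 dog 2.

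LAMA4 encodes a laminin alpha chain that is found mainly in the walls of blood vessels. Its brightest probe set, 1583503_at, had log2 signals of 10.69, 10.83 and 10.07 in the Day-0 dogs, 10.64, 10.86 and 10.58 in the Day-3 dogs, 10.82, 11.09 and 11.00 in the Week-1 dogs, 10.81, 10.97 and 11.04 in the Week-2 dogs, and 10.82, 11.01 and 11.04 in the End-stage dogs. All 12 paced dogs lay above the Day-0 mean, but only 7 of them lay above the highest Day-0 dog, and each paced group overlapped Day-0. The low Day-0 dog was low in each of its isolations, at 10.08, 10.06 and 10.06.

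In order of their means, the LAMA4 levels were 10.53 ± 0.41 at Day-0, 10.69 ± 0.15 at Day-3, 10.94 ± 0.12 at Week-2, 10.95 ± 0.12 at End-stage and 10.97 ± 0.14 at Week-1 (SD, n = 3 dogs each). The means of Week-2, End-stage and Week-1 differed by at most 0.02 from the next, which is within the spread of the dogs. Only the step between Day-3 and Week-2, of 0.24, exceeded the pooled SD of 0.22.

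The differences of LAMA4 from Day-0 were 0.17 at Day-3, 0.44 at Week-1, 0.41 at Week-2 and 0.42 at End-stage (log2, SE 0.17 each). None passed the test, with limma adjusted p values of 0.906, 0.421, 0.376 and 0.497. Over all paced dogs LAMA4 lay higher than in Day-0 dogs by 0.36 (SE 0.13), a 1.28-fold difference with a limma adjusted p of 0.278. These values rest in part on Day-0 dog 3: without it they became -0.07 at Day-3, 0.21 at Week-1, 0.18 at Week-2, 0.19 at End-stage and 0.13 over all paced dogs. Without Week-1 dog 1 and End-stage dog 1, the Week-1 difference was 0.52 and the End-stage difference 0.49. With the 45 arrays fitted singly and the dog as a random block, LAMA4 passed at Week-1, Week-2 and End-stage and over all paced dogs, with limma adjusted p values of 0.0262, 0.0383, 0.0404 and 0.0130. In these comparisons that fit called 377, 483, 322 and 701 of the 14302 probe sets tested, against 4, 12, 2 and 43 with dog means. It used the same correlation between a dog's isolations for all probe sets. For this LAMA4 probe set the SD was 0.20 between dogs and 0.13 between isolations. The part of the shared correlation in these calls was not tested.

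The other tested LAMA4 probe sets did not show the same order of dogs. Over 15 dogs, the Pearson r with the brightest was 0.32 for 1606044_at, 0.08 for 1593030_at, -0.13 for 1605466_at and 0.25 for 1596916_at. Among themselves these 4 had r between 0.59 and 0.88. They share dogs and arrays, and each was dimmer than the brightest, with mean signals of 449, 145, 50.6 and 44.4 against 1805. Their differences between all paced dogs and Day-0 dogs were 0.16, -0.07, 0.00 and 0.15 (SE 0.23 to 0.29). Without Day-0 dog 3 these differences were -0.11, -0.26, -0.07 and -0.08. At Week-1, 1605466_at differed from Day-0 by -0.27, and by -0.60 without Week-1 dog 1 and End-stage dog 1. Of the 5 LAMA4 probe sets tested, only 1583503_at had an unadjusted limma p under 0.05 in any comparison. Why the probe sets differ was not tested.

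COL4A2 encodes the chain that pairs with COL4A1 chains in the common collagen IV molecule, and has a single probe set. Its log2 signals were 10.50, 10.62 and 10.32 in the Day-0 dogs, 10.52, 10.76 and 10.86 in the Day-3 dogs, 10.49, 10.17 and 10.60 in the Week-1 dogs, 10.74, 10.92 and 10.55 in the Week-2 dogs, and 10.43, 11.10 and 11.21 in the End-stage dogs. End-stage dogs 2 and 3 were the highest of all dogs, while End-stage dog 1 lay within the Day-0 range and Week-1 dog 2 lay below it. Every paced group overlapped Day-0.

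The COL4A2 group means were 10.48 ± 0.15 at Day-0, 10.71 ± 0.17 at Day-3, 10.42 ± 0.22 at Week-1, 10.74 ± 0.19 at Week-2 and 10.91 ± 0.42 at End-stage (SD, n = 3 dogs each). In order of level, no neighbouring groups differed by more than the pooled SD of 0.25. Differences from Day-0 were 0.23 at Day-3, -0.06 at Week-1, 0.26 at Week-2 and 0.43 at End-stage (log2, SE 0.19), with limma adjusted p values of 0.857, 0.968, 0.682 and 0.558. The Day-3 difference of COL4A2 was 0.15 without Day-0 dog 3, and the Week-2 difference 0.16 without Week-2 dog 2.

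The End-stage difference of COL4A2 depended on the dogs that make up that group. Without Week-1 dog 1 and End-stage dog 1 it was 0.68 with a limma adjusted p of 0.238, and without End-stage dog 3 it was 0.28. End-stage dog 1 had COL4A2 values of 10.86, 10.19 and 10.24 in its 3 isolations, and Week-1 dog 1 had 10.72, 10.62 and 10.12. In both dogs the isolations lay farther apart than the usual spread between isolations of a dog, a pooled SD of 0.14. The End-stage arrays with the values 10.19 and 10.24 and the Week-1 array with 10.12 were among those closest to each other over the 200 probe sets.

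COL4A1, the partner chain, was measured with 3 tested probe sets. The brightest, 1603400_s_at, had log2 signals of 10.75, 10.70 and 10.39 in the Day-0 dogs, 10.88, 11.00 and 11.14 in the Day-3 dogs, 10.76, 10.06 and 10.75 in the Week-1 dogs, 10.66, 11.09 and 10.66 in the Week-2 dogs, and 10.54, 11.08 and 11.37 in the End-stage dogs. The Day-3 dogs all lay above the Day-0 dogs, while the later groups overlapped them. Its difference at Day-3 was 0.39 (log2, SE 0.22, limma adjusted p = 0.710) and at End-stage 0.38. The End-stage difference was 0.61 without Week-1 dog 1 and End-stage dog 1, and 0.20 without End-stage dog 3. At Week-1 the difference was -0.10, and -0.21 without Week-1 dog 1 and End-stage dog 1.

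The probe set 1582733_at of COL4A1 came nearest to the threshold among the members at End-stage. Its log2 signals were 9.97, 10.20 and 10.11 in the Day-3 dogs and 9.83, 10.13 and 10.37 in the End-stage dogs, against 9.65, 9.79 and 9.52 in the Day-0 dogs. No dog of either paced group reached down to the highest Day-0 dog, and the Week-2 dogs, at 10.14, 9.99 and 9.82, did not either. The differences from Day-0 were 0.44 at Day-3, -0.02 at Week-1, 0.33 at Week-2 and 0.46 at End-stage (SE 0.15), with limma adjusted p values of 0.436, 0.988, 0.431 and 0.349. The remaining probe set, 1587555_at, had differences of 0.49, 0.04, 0.41 and 0.64 in the same groups (SE 0.27). Its End-stage difference was 0.41 without End-stage dog 3, and its Week-1 difference -0.15 without Week-1 dog 3. Without Week-1 dog 1 and End-stage dog 1, the End-stage differences were 0.60 for 1582733_at and 0.94 for 1587555_at.

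All 3 COL4A1 probe sets had the same pattern over the groups as COL4A2: higher means than Day-0 at Day-3, Week-2 and End-stage, and a Week-1 mean within 0.10 of Day-0. Week-1 dog 2 was the lowest of the 15 dogs with each of these 4 probe sets. Without that dog the Week-1 difference of COL4A2 turned to 0.06, and that of COL4A1 with 1603400_s_at to 0.14.

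**Figure D2:**
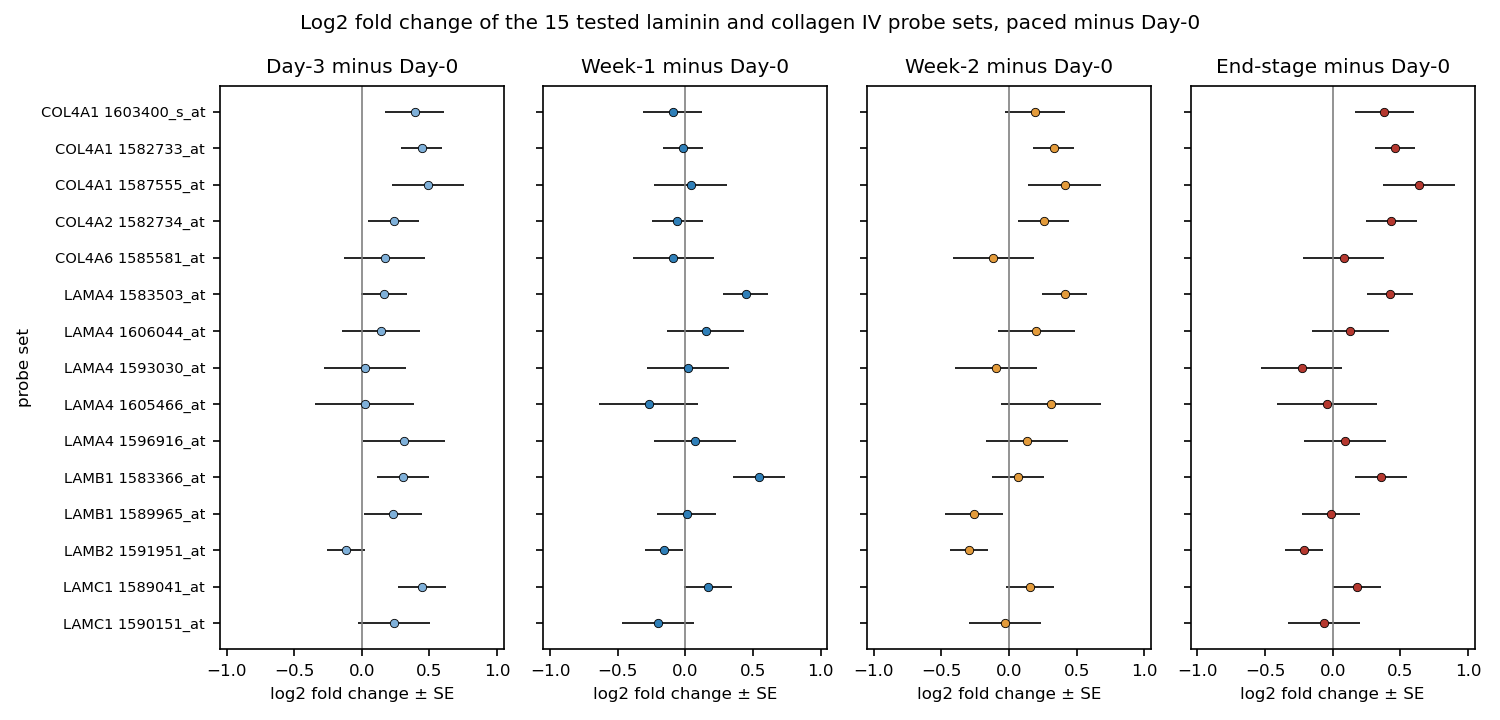
Log2 fold change of the 15 tested probe sets in each paced group relative to Day-0 (horizontal axis; point and bar, estimate ± SE from the limma fit; vertical line, no difference). The COL4A1 and COL4A2 points lie right of 0 at Day-3, Week-2 and End-stage and near 0 at Week-1, where the brightest LAMA4 and LAMB1 points lie at 0.44 and 0.55.

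LAMB1 encodes a beta chain shared by many laminins. Its brightest probe set, 1583366_at, had log2 signals of 8.46, 8.54 and 8.36 in the Day-0 dogs, 8.38, 8.98 and 8.92 in the Day-3 dogs, 8.70, 9.37 and 8.93 in the Week-1 dogs, 8.33, 8.73 and 8.49 in the Week-2 dogs, and 8.66, 9.08 and 8.69 in the End-stage dogs. All Week-1 and all End-stage dogs lay above the Day-0 dogs, and the highest of the 15 was Week-1 dog 2, which was the lowest for COL4A1 and COL4A2. The differences from Day-0 were 0.31 at Day-3, 0.55 at Week-1, 0.06 at Week-2 and 0.36 at End-stage (log2, SE 0.19), and the limma adjusted p at Week-1 was 0.372. Leaving out single dogs moved these values to 0.20 without Day-3 dog 2, 0.36 without Week-1 dog 2, -0.04 without Week-2 dog 2 and 0.22 without End-stage dog 2. Without Week-1 dog 1 and End-stage dog 1, the Week-1 difference was 0.70 and the End-stage difference 0.43. The other LAMB1 probe set, 1589965_at, had a Week-1 difference of 0.01 (SE 0.22) and an r of 0.35 with the brightest over 15 dogs. Its Week-1 difference was 0.18 without Week-1 dog 1 and End-stage dog 1.

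LAMC1 encodes the gamma chain of most laminins. With 1589041_at the log2 signals were 9.51, 9.54 and 9.23 in the Day-0 dogs, 9.76, 9.88 and 9.98 in the Day-3 dogs, 9.71, 9.85 and 9.22 in the Week-1 dogs, 9.78, 9.24 and 9.73 in the Week-2 dogs, and 9.74, 9.41 and 9.68 in the End-stage dogs. The Day-3 dogs lay above all Day-0 dogs and the later groups overlapped them. The Day-3 difference was 0.45 (log2, SE 0.18, limma adjusted p = 0.541), and the second LAMC1 probe set, 1590151_at, had 0.24 (SE 0.27), also without overlap. The first was 0.25 when a dog's median array was used, and the second 0.15 without Day-0 dog 3. Without Week-1 dog 1 and End-stage dog 1, LAMC1 with 1589041_at differed by 0.11 at Week-1 and by 0.12 at End-stage. Both probe sets went together over the dogs, with r = 0.80.

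LAMB2 encodes a beta chain that is known from the kidney filter and the nerve-muscle junction. It was the only one of the 7 tested genes whose brightest probe set had lower means than Day-0 in every paced group. Its log2 signals were 7.60, 7.82 and 7.47 in the Day-0 dogs, 7.57, 7.33 and 7.65 in the Day-3 dogs, 7.37, 7.60 and 7.45 in the Week-1 dogs, 7.18, 7.38 and 7.45 in the Week-2 dogs, and 7.47, 7.54 and 7.24 in the End-stage dogs. Only the Week-2 dogs lay below all Day-0 dogs, with a difference of -0.29 (log2, SE 0.14, limma adjusted p = 0.464). Ratios of 3-prime to 5-prime signal of control genes are used as a measure of RNA integrity. Among the 15 tested probe sets LAMB2 had the strongest relation to this ratio of the actin control, with r = -0.58 over 15 dogs. With the ratio of the GAPDH control r was 0.29, of the opposite sign. The actin ratio was 0.12 to 0.27 over the dogs, so its 3-prime signal lay below its 5-prime signal, and the GAPDH ratio was 0.88 to 1.02. The part of RNA quality in its level was not tested.

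COL4A6, a chain known from smooth muscle basement membranes, was the dimmest tested gene, with a mean signal of 44.9. Its log2 signals were 5.10, 5.76 and 5.58 in the Day-0 dogs, 5.81, 5.36 and 5.78 in the Day-3 dogs, 5.70, 4.73 and 5.73 in the Week-1 dogs, 5.74, 5.16 and 5.20 in the Week-2 dogs, and 6.0, 5.37 and 5.31 in the End-stage dogs. All groups overlapped, and the difference over all paced dogs was 0.01 (log2, SE 0.24). The End-stage difference was 0.08, and -0.14 without Week-1 dog 1 and End-stage dog 1.

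The remaining 15 probe sets were below the signal of 22.8 that divides tested from untested probe sets. These were all probe sets of COL4A3, COL4A4, COL4A5, LAMA1 and LAMA3, and 1 to 2 probe sets each of COL4A1, COL4A6, LAMA4 and LAMB1. Their mean signals were between 4.57 and 20.4. COL4A3 and COL4A4 are chains of the kidney filter and COL4A5 joins them there, LAMA1 is a chain of the early embryo, and LAMA3 is a chain of skin and other epithelia. A low signal describes the probe set and does not show that the tissue lacks the transcript: the 2 untested LAMA4 probe sets had signals of 6.16 and 4.57 although LAMA4 was bright with another.

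**Figure D3:**
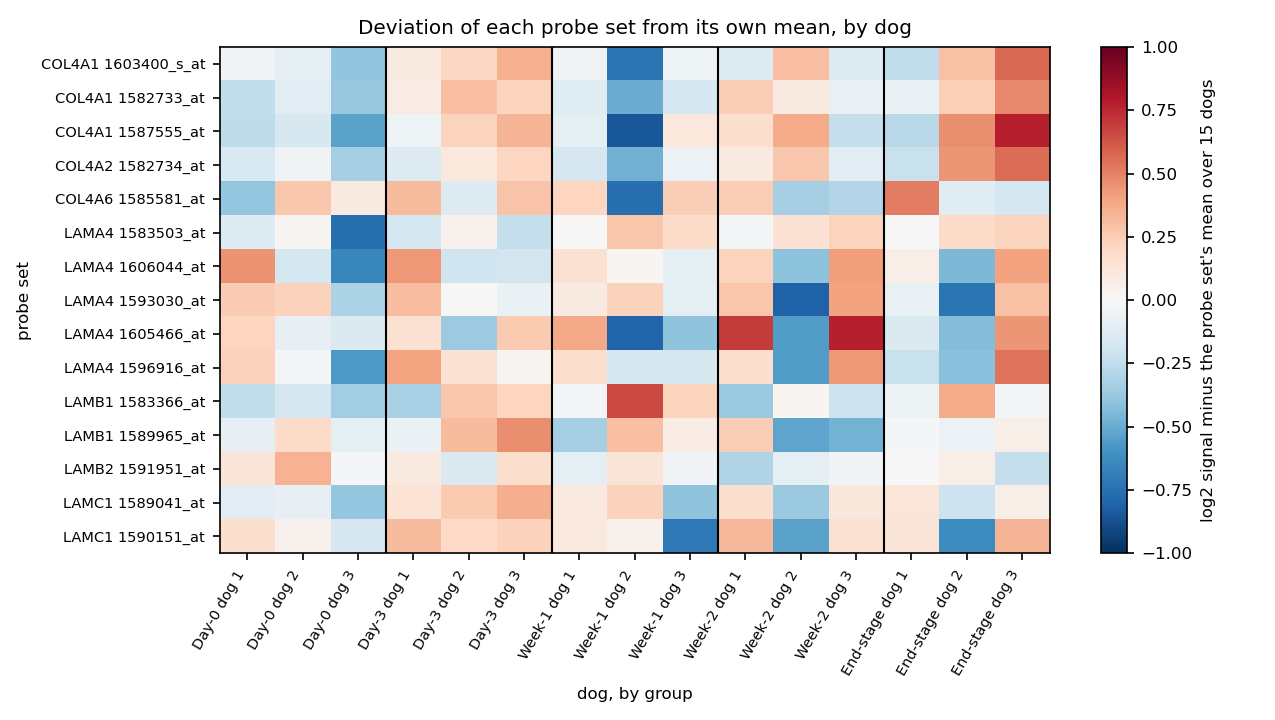
Log2 signal of each tested probe set (one line each) in each of the 15 dogs (one column each) minus the mean of that probe set over all dogs (colour, from -1 to 1). The 4 lines of COL4A1 and COL4A2 share their colours from dog to dog, the brightest LAMA4 line, 1583503_at, stands apart from the 4 other LAMA4 lines, and Week-1 dog 2 is lowest for these collagen IV lines and highest for LAMB1 with 1583366_at.

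At Day-3, 0 of the 15 tested members passed the adjusted threshold, as did 0% of all probe sets. Unadjusted limma p values under 0.05 were found for 2 members (COL4A1 with 1582733_at and LAMC1 with 1589041_at), beside 8.07% of all probe sets. The Day-3 dogs lay above all Day-0 dogs with 5 members, the 3 of COL4A1 and both of LAMC1, beside 6.16% of all, and below them with 0 members, beside 6.44% of all. The median difference was 0.23 for the members and 0.00 for all probe sets, and 14 of 15 members were above 0, beside 50.8% of all probe sets. These 15 are probe sets of 7 genes and share dogs and arrays. Without Day-0 dog 3, the LAMA4 probe sets 1583503_at, 1606044_at, 1593030_at and 1605466_at were at -0.07, -0.12, -0.16 and -0.05, while LAMA4 with 1596916_at was at 0.08.

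At Week-1, 0 members passed the adjusted threshold (0.028% of all probe sets) and 2 had an unadjusted limma p under 0.05 (9% of all): LAMB1 with 1583366_at and LAMA4 with 1583503_at. The Week-1 dogs lay above Day-0 with 1 member, LAMB1 (6.73% of all), and below with 0 members (9.4% of all). The median difference of the members was 0.01, against -0.03 for all probe sets, and 8 of 15 members were above 0, beside 45.4% of all.

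At Week-2, 0 members passed (0.0839% of all) and 2 had an unadjusted limma p under 0.05 (11.2% of all): LAMA4 with 1583503_at and COL4A1 with 1582733_at. The dogs did not overlap Day-0 with 1 member above, COL4A1 with 1582733_at (8.08% of all), and with 1 member below, LAMB2 (9.21% of all). The median was 0.16, against -0.01 for all probe sets, with 10 of 15 members and 49.2% of all above 0.

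At End-stage, 0 members passed (0.014% of all) and 4 had an unadjusted limma p under 0.05 (8.23% of all): COL4A2, LAMA4 with 1583503_at, and COL4A1 with 1582733_at and 1587555_at. The dogs lay above Day-0 with 2 members, COL4A1 with 1582733_at and LAMB1 with 1583366_at (6.33% of all), and below with 0 members (7.94% of all). The median was 0.13, against -0.02 for all probe sets, with 10 of 15 members and 45.7% of all above 0. The 4 comparisons share the Day-0 dogs, so that a low or high Day-0 dog enters all of them.

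Over all paced dogs, 0 members passed (0.301% of all probe sets) and 2 had an unadjusted limma p under 0.05, the LAMA4 probe set 1583503_at and the COL4A1 probe set 1582733_at (11.7% of all). The median difference between all paced dogs and Day-0 dogs was 0.16 for the members and -0.01 for all probe sets, and 11 of 15 members were above 0, beside 47.2% of all. End-stage was also set against Day-3, a comparison without Day-0 dogs: 0 members passed (0% of all) and 0 had an unadjusted limma p under 0.05 (4.13% of all), with 5 of 15 members and 44.8% of all above 0. Asked for any difference among the 5 groups, limma's moderated F test called 0 members (0% of all), and 1, COL4A1 with 1582733_at, had an unadjusted p under 0.05 (7.37% of all).

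COL4A1 was the gene most like COL4A2 across the dogs. Among 7673 single-symbol probe sets compared with COL4A2 over 15 dogs, the 3 with the highest Pearson r were the COL4A1 probe sets 1587555_at, 1603400_s_at and 1582733_at, with r = 0.96, 0.91 and 0.89. WDR1 (r = 0.87) and CLIC1 (r = 0.82) came next. With each dog taken as its deviation from its group mean, COL4A2 and the COL4A1 probe sets still had r of 0.96, 0.91 and 0.87, so the likeness was also present among dogs of the same group. These points share dogs and arrays, and the values are a description.

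For LAMA4 with 1583503_at, the most alike of 7669 probe sets were TSPAN3 (r = 0.84), ARG1 (r = 0.82), LRWD1 (r = 0.80), LOC474850 (r = 0.79) and MAG (r = 0.79). No laminin or collagen IV gene was among them. LAMA4 and COL4A2 had r = 0.32 over the 15 dogs (two-sided permutation p = 0.248, adjusted over 5 relations p = 0.310) and Spearman's rho of 0.23 (permutation p = 0.406, adjusted p = 0.677). Without End-stage dogs 2 and 3, r was 0.13, and without Week-1 dog 1 and End-stage dog 1 it was 0.33.

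The difference between LAMA4 and COL4A2 within a dog was examined after the Week-1 values had been seen. The log2 signal of LAMA4 minus that of COL4A2 was 0.33, 0.92 and 0.41 in the Week-1 dogs, against 0.18, 0.22 and -0.25 in the Day-0 dogs. All Week-1 dogs lay above all Day-0 dogs, and the mean difference was 0.50, with a two-sided exact permutation p of 0.1, the smallest that 3 dogs against 3 can give. In the other paced groups the difference from Day-0 was -0.07 at Day-3, 0.15 at Week-2 and -0.01 at End-stage, with exact permutation p values of 0.5, 0.6 and 1. The Week-1 difference was 0.61 without Week-1 dog 1, over 2 dogs against 3. Without End-stage dog 1 the End-stage difference was -0.18, also over 2 dogs against 3. The same comparison was made for LAMB1 and COL4A1, where the log2 difference was -2.06, -0.69 and -1.82 in the Week-1 dogs, against -2.29, -2.17 and -2.03 in the Day-0 dogs. These groups overlapped, and the mean difference was 0.64 (two-sided exact permutation p = 0.2) or 0.91 without Week-1 dog 1. These are differences within an array and give no ratio of the amounts of the transcripts, since each probe set has its own brightness.

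Markers of cell types were set beside the members, since endothelial cells and fibroblasts are known sources of these chains. Of 12 endothelial markers 6 were measured, among them PECAM1, TIE1 and VWF. Their summed signal was 4534 to 5010 in the Week-1 dogs, against 5280 to 6210 in the Day-0 dogs, and 5234 to 6378 in the dogs of the other paced groups. All 3 Week-1 dogs were below every other dog in this sum, and Week-1 also had the lowest mean of COL4A2. AQP1, with a mean signal of 2815, was the brightest of the 6 and weighs most in this sum. The markers did not all move alike. VWF lay above the highest Day-0 dog in 9 of the 12 paced dogs and below the lowest in 2. TIE1 and AQP1 lay below the lowest in 10 and 6 and above the highest in 0. These counts of dogs have no share over all probe sets beside them. At Week-1, 0 of the 6 markers passed the limma test, with 3 at an unadjusted p under 0.05 (9% of all probe sets) and a median difference of -0.29, against -0.03 for all probe sets.

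Over the 15 dogs COL4A2 followed the mean log2 signal of these endothelial markers with r = 0.70 (two-sided permutation p = 0.00364, adjusted over 5 relations p = 0.0182) and rho = 0.68 (permutation p = 0.00646, adjusted p = 0.0322). Without the most extreme dogs, Week-1 dog 2 and End-stage dog 3, r was 0.45 (permutation p = 0.127), so with the signals as deposited the pooled relation rests on them. With median centring r without them was 0.58 (permutation p = 0.0346), and rho over all dogs had an adjusted permutation p of 0.0631. Leaving out Week-1 dog 1 and End-stage dog 1 gave r = 0.68 (permutation p = 0.00982, adjusted p = 0.0491) and rho = 0.59 (permutation p = 0.0362, adjusted p = 0.0906). Within groups, as deviations from the group means, r was 0.90. For LAMA4 and the same markers r was -0.03 (permutation p = 0.913, adjusted p = 0.913) and rho was -0.09 (permutation p = 0.743, adjusted p = 0.743). Without the same 2 dogs r was 0.05, and as deviations from the group means it was 0.51.

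Of 10 fibroblast markers 7 were on the array and 6 were tested, among them COL1A1, COL3A1 and DCN. POSTN, made by activated fibroblasts, had a mean signal of 2.02 and was not tested. The summed signal was 7923 to 13925 in the paced dogs, against 7913 to 11466 in the Day-0 dogs. COL4A2 followed the mean log2 signal of the 6 markers with r = 0.62 (permutation p = 0.0136, adjusted p = 0.034) and rho = 0.64 (permutation p = 0.0129, adjusted p = 0.0322), and without Day-3 dog 3 and Week-1 dog 3 r was 0.74 (permutation p = 0.00387). As deviations from the group means, r was 0.71. With median centring rho had an adjusted permutation p of 0.0569, and without Week-1 dog 1 and End-stage dog 1 r was 0.59 (permutation p = 0.0317, adjusted p = 0.0794). LAMA4 had r = 0.41 with them (permutation p = 0.126, adjusted p = 0.210) and rho = 0.16 (permutation p = 0.575, adjusted p = 0.719). Without the same 2 dogs r was 0.60 (permutation p = 0.0249), and as deviations it was 0.28. With quantile normalization the most extreme dogs were Day-0 dog 3 and Week-1 dog 3, and r without them was -0.23 (permutation p = 0.451). The sign of this r for LAMA4 thus differed between settings in which both the normalization and the dogs left out had changed. The part of either cell type in the levels of COL4A2 and LAMA4 was not tested.

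**Figure D4:**
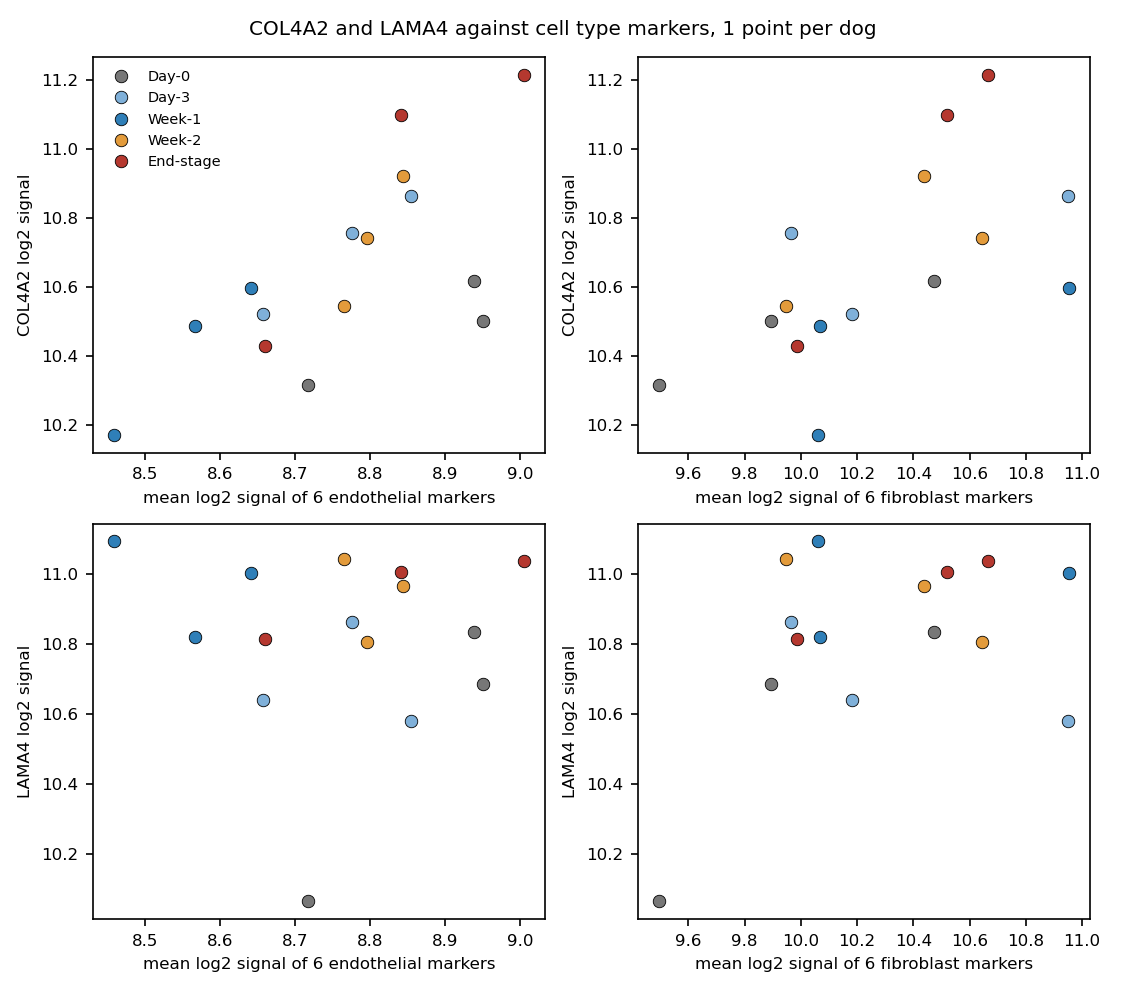
Log2 signal of COL4A2 (upper panels) and LAMA4 with 1583503_at (lower panels) against the mean log2 signal of 6 endothelial markers (left) and 6 fibroblast markers (right), with 1 point per dog coloured by group. COL4A2 is higher in dogs with higher markers in both upper panels (r = 0.70 and r = 0.62), while the r of LAMA4 with the endothelial markers is -0.03.

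Other markers gave these values. Of the 6 smooth muscle and pericyte markers tested 0 passed at any stage (limma), and their median difference from Day-0 was -0.10 at Day-3, -0.08 at Week-1, -0.37 at Week-2 and -0.55 at End-stage. In the same order, 0, 1, 2 and 4 of them had an unadjusted limma p under 0.05, beside 8.07%, 9%, 11.2% and 8.23% of all probe sets. Their summed signal was 11231 to 13636 in the End-stage dogs, against 13793 to 16151 in the Day-0 dogs, so these groups did not overlap. DES, with a mean signal of 7379, was the brightest of the 6 and weighs most in this sum. It did not go with the others: it lay above the highest Day-0 dog in 4 of the 12 paced dogs and below the lowest in 0. SMTN lay below the lowest in 10 and KCNJ8 in 9, while TAGLN lay above the highest in 5 and below the lowest in 4. For these counts of dogs no share over all probe sets was counted. The 8 macrophage markers had a median difference of 0.42 at Day-3, against 0.00 for all probe sets. At that stage 0 of them passed and 2 had an unadjusted limma p under 0.05 (8.07% of all probe sets). Of the adipocyte markers ADIPOQ and LEP were measured and of the Schwann cell markers S100B, with mean signals of 43.0, 20.3 and 21.8, and 0 of 4 red blood cell markers were measured. The adipocyte markers summed to 318 in Day-3 dog 3 and 413 in Week-1 dog 3, against 27.3 to 137 in the other 13 dogs. These dogs were also the highest in the fibroblast sum, and the part of fat tissue in the members' values was not tested. All 9 cardiomyocyte markers had a lower mean in paced than in Day-0 dogs, with a median of -0.17 and 0 passing the limma test.

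Proteins that link the networks were represented by 5 of 10 genes. None passed in any comparison (0 at an unadjusted limma p under 0.05), and the median difference between all paced dogs and Day-0 dogs was 0.12. FBLN1, a fibulin that binds laminin and nidogen, lay higher by 0.44 (log2, SE 0.23) and above the highest Day-0 dog in 11 of 12 paced dogs. Here and below, such counts of dogs for partner genes have no share over all probe sets beside them, since that was not counted. FBLN2, a related fibulin, lay higher by 0.38 (SE 0.21). SPARC, a collagen-binding protein of the basement membrane, lay higher by 0.12 (SE 0.17). The perlecan gene HSPG2 differed by 0.01 (SE 0.16).

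Receptors for laminin and collagen IV and their partners at the cell membrane were represented by 13 tested genes of 22. Over all paced dogs 0 passed (0.301% of all probe sets) and 3 had an unadjusted limma p under 0.05 (11.7% of all). ITGB5, an integrin beta chain, lay higher by 0.56 (log2, SE 0.11, limma adjusted p = 0.0515), in 11 of 12 paced dogs above the highest Day-0 dog. ITGAV, the alpha chain that pairs with it, lay higher by 0.45 (SE 0.13, limma adjusted p = 0.154). Both belong to receptors known for binding vitronectin rather than laminin. DMD, which encodes dystrophin on the inner face of the membrane, lay higher by 0.25 (SE 0.11, limma adjusted p = 0.384). Among genes of laminin receptors, ITGA7, the main muscle laminin receptor chain, differed by 0.04 (SE 0.10) and DAG1, dystroglycan, by 0.02 (SE 0.09). ITGA6 and ITGB4, chains that form a laminin receptor of epithelia, differed by -0.30 (SE 0.15, limma adjusted p = 0.452) and -0.46 (SE 0.30, limma adjusted p = 0.641). They lay below the lowest Day-0 dog in 10 and 9 of the 12 paced dogs, and above the highest in 1 each.

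Of 12 genes of collagen synthesis and cross-linking 4 were measured, and 1 rose over all paced dogs, where 0.301% of all probe sets were called. LOXL2, a lysyl oxidase that cross-links collagen IV among other collagens, lay in all 12 paced dogs above the Day-0 dogs, at 7.78 to 8.28 against 6.88 to 7.62 on the log2 scale. The difference was 0.73 (SE 0.14, limma adjusted p = 0.044). The call was kept under 7 of the 28 alternative settings, and without Day-0 dog 3 the difference was 0.52. It was 0.71 without Week-1 dog 1 and End-stage dog 1 (limma adjusted p = 0.0823). P4HA2, a subunit of the enzyme that hydroxylates collagen prolines, lay higher by 0.51 (SE 0.18, limma adjusted p = 0.247), and SERPINH1, a collagen chaperone, by 0.24 (SE 0.11, limma adjusted p = 0.420).

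Of 9 proteases and inhibitors that act on collagen IV and laminin, 7 were on the array and 4 were tested. Over all paced dogs 0 passed (0.301% of all probe sets) and 1 had an unadjusted limma p under 0.05 (11.7% of all). TIMP1, an inhibitor of matrix proteases, lay in all 12 paced dogs above the Day-0 dogs, by 0.57 on average (log2, SE 0.16, limma adjusted p = 0.146). TIMP3, an inhibitor bound to the matrix, differed by -0.14 (SE 0.15), and MMP2, a protease that cleaves collagen IV, by -0.27 (SE 0.32).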

How the data were processed

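Per the submitters' processing notes, GCOS 1.4 and MAS5 produced the signals. The deposited table holds linear signal intensity per probe set, which the authors had scaled array by array: without the lowest and highest 2% of probe sets, array means were 150.02 to 150.026. Array medians were 33.3 to 48.6. The genome build behind the array is not given in the sources used here. Symbols came from the array's annotation, and gene neighbours from the RefSeq table of UU_Cfam_GSD_1.0. Arrays have no sequencing depth, and precision is set by how many dogs were measured.

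A dog's value is the mean of the log2 intensity of its 3 arrays, and dogs are the replicates. Probe sets in the lowest 40% by mean log2 signal, below a signal of 22.8, were left out. With limma 3.58.1 (R 4.3.3; eBayes with an intensity trend) the 5 group means were estimated from the 15 dogs together, and two-sided p values were adjusted by Benjamini-Hochberg over the 14302 probe sets of a comparison, threshold 0.05. The scripts were tested on simulated data. Correlations over dogs used 100000 permutations in SciPy 1.17.1. Every member was named; values per dog are given for its brightest probe set, and for partner lists the up to 3 genes with the smallest unadjusted p over all paced dogs. HSPG2, ITGA6, ITGA7, ITGB4, DAG1 and the marker genes were chosen after their values were seen. The members, the lists of partners and cell type markers and the comparisons were chosen with earlier results of these data known. Alternatives covered the filter, normalization, log offset, the summary and number of isolations, the variance trend, the 45 arrays fitted singly with a random block per dog, the dogs fitted, a replicate block and leaving out dogs; the differences between 2 genes and the relations without Week-1 dog 1 and End-stage dog 1 were added after seeing the data.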

Additional observations from a re-analysis of the deposited data

How the results depend on the processing

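Of 156 recounts of called members under other settings, 151 gave 0, as in the results above. With all 45 arrays and the dog as a random block the count was 1, the LAMA4 probe set 1583503_at, at Week-1, Week-2, End-stage, over all paced dogs and in the F test. Its differences there were 0.44, 0.41, 0.42 and 0.36, with limma adjusted p values of 0.0262, 0.0383, 0.0404 and 0.0130, and the highest adjusted p under any setting was 0.797, 0.744, 0.901 and 0.841. That setting called 377, 483, 322, 701 and 493 of all probe sets, against 4, 12, 2, 43 and 0 with dog means. The cause was not tested. Of 256 values of LAMA4 and COL4A2 under other settings, 4 changed sign. LAMA4 at Day-3 was -0.065 without Day-0 dog 3, with a range of -0.065 to 0.32 over single dogs left out. COL4A2 at Week-1 was 0.0097 without Day-0 dog 2, 0.062 without Week-1 dog 2 and 0.049 without the isolations numbered 3, with a range of -0.15 to 0.062 over single dogs left out. The dog numbers were not taken to pair the dogs: same-numbered dogs all deviated together with r over 0.1 in 3 of 10 pairs of groups (Day-3 with Week-1, Day-3 with Week-2, Week-2 with End-stage), which enter the F test and the mean of all paced dogs, and in none with Day-0. With the dog number as a replicate block LAMA4 differed by 0.36 over all paced dogs (limma adjusted p = 0.155), and the block changed no member's call. In 6 of the 10 pairs of groups, among them Day-0 with Week-2, 6 of 6 dogs correlated best with their own number. For Day-0 with Week-2 the r of same-numbered dogs was 0.03 to 0.04. The dog numbered 1 also had the lowest cardiomyocyte sum in every group, Day-0 included. Both are hints from the data and not from the design. Quantile normalization and median centring kept every sign of LAMA4 and COL4A2. Precision is limited by 3 dogs a group: 3 against 3 give no two-sided exact permutation p below 0.1.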
